A study of Mus musculus with 12 samples.

Results

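The genes described here are 8 genes that B cells and plasma cells express: Cd79a, Cd79b, Ms4a1, Cd22, Blnk, Pou2af1, Fcrla and Jchain. They were taken as a list of symbols out of 18193 genes that have a probe set with a single gene symbol, and each gene was read from its probe set with the highest mean over 12 arrays. All 8 passed the filter on dim probe sets and were tested among 12760 genes. The arrays hold liver RNA of BALB/c mice in a series on acute autoimmune hepatitis, with 3 mice in each of 4 groups and 1 array per mouse. IFNko TGFB1 KO mice lack both transforming growth factor beta 1 (Tgfb1) and interferon gamma (Ifng), and TGFB KO mice lack Tgfb1 alone. IFNko TGFB+ mice lack Ifng and keep Tgfb1, and WT mice are wild type. The labels spell the first word of the IFNko TGFB+ group with its letters in another order (INFko), do not say whether these mice carry 1 or 2 intact copies of Tgfb1, and give no age. The disruptions are named in the labels for the whole mouse, and the disrupted part of each gene is not given in the sources used here.

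TGF-beta1 is a cytokine that restrains lymphocytes, and interferon gamma is a product of activated T cells and natural killer cells. Cd79a and Cd79b form the signalling pair of the B cell receptor, a membrane immunoglobulin that recognises antigen, and Blnk is the adaptor that links the receptor's kinases to downstream enzymes. Ms4a1 (CD20) is a surface protein of mature B cells, Cd22 is a sialic acid binding lectin that dampens receptor signalling, Fcrla is an Fc receptor-like protein kept inside B cells, and Pou2af1 is a coactivator that octamer-binding factors recruit to immunoglobulin promoters. Jchain links immunoglobulin M and A into polymers and is made by antibody-secreting plasma cells, which lose most surface B cell proteins. A healthy liver holds a minor population of B cells, most liver RNA comes from hepatocytes, and in whole-liver RNA fewer cells of a type and less RNA per cell cannot be told apart.

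RefSeq promoter windows of assembly GRCm38.p6, from 250 bases before to 50 bases after the start of the gene, were at hand for 6 of the 8 genes, all except Cd79b and Ms4a1. Those of Blnk, Cd22, Cd79a and Jchain are shown because the group differences described below include Blnk, Cd22 and Jchain, and because Cd79a, with Cd79b, defines the lineage. Each is written 5′ to 3′ on the strand of the gene, with motif matches in capitals.
Blnk, chr19:40994172-40994471, minus strand: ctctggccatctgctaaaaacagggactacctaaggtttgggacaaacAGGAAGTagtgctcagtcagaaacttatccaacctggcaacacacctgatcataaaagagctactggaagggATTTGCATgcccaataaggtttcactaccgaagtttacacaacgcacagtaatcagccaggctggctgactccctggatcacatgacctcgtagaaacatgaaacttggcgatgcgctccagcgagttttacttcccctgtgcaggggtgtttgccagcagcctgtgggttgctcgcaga
Cd22, chr7:30878979-30879278, minus strand: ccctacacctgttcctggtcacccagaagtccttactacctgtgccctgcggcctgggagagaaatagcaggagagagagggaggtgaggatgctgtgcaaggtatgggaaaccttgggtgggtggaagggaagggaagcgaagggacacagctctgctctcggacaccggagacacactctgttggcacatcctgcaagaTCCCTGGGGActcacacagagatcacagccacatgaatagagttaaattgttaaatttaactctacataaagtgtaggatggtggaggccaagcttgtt
Cd79a, chr7:24897247-24897546, plus strand: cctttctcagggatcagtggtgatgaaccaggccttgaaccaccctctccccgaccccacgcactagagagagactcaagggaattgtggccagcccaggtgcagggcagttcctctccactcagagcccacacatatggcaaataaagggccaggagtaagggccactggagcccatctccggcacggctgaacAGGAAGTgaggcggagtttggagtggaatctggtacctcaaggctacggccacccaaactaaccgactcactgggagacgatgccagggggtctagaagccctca
Jchain, chr5:88527848-88528147, minus strand: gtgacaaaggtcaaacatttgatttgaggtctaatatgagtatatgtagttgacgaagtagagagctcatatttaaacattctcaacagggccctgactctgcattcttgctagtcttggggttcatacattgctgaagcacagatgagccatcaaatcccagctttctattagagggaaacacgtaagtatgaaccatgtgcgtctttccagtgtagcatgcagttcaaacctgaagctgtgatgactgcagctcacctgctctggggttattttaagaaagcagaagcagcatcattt
Motifs were searched on both strands. The octamer ATGCAAAT, bound by the factors that recruit Pou2af1, was found in the Blnk window alone of the 6, on the reverse strand (printed as ATTTGCAT), 130 bases before the gene start. Of 32851 promoter windows of the same length, 1.74% hold it. For the B lineage factor Ebf1 only 1 exact form was searched, TCCC and GGGA with any 2 bases between them. That form was found in the Cd22 window alone, 49 bases before the gene start, against 0.904% of all windows. Forms that depart from it were not searched, so the other windows, that of Cd79a included, are not shown to lack an Ebf1 site. AGGAAGT, a purine-rich motif of the kind that Ets family factors bind, was searched only after the sequences had been read. It was found in the windows of Blnk, 202 bases before the start, and Cd79a, 55 bases before it, against 9.35% of all windows. The windows of Pou2af1, Fcrla and Jchain held no exact match to any of the 3 motifs. None of the matches overlapped another, and a match describes the letters, not binding.

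Values are deposited signals in linear units. The trimmed mean was 150 on each array. The median probe set signal was 61.3 on IFNko TGFB1 KO 1, whose rank correlation with any other array was at most 0.809. The remaining 11 arrays had medians from 33.8 to 42.6 and correlated among themselves by 0.816 or more. Group differences were therefore taken from quantile-normalized log2(signal + 16). A second array, IFNko TGFB1 KO 2, stood apart in the genes described here: after normalization it was the highest of 12 arrays for 6 of the 8 genes, and for 17% of all genes tested. IFNko TGFB1 KO 1 was highest for Fcrla (13.4% of all genes) and IFNko TGFB1 KO 3 for Blnk (3.7%). Results that rest on IFNko TGFB1 KO 2 are given with and without it. Tgfb1 signal averaged 40.2 ± 13.9 in IFNko TGFB1 KO against 188 ± 29.5 in IFNko TGFB+, and 68.1 ± 21.2 in TGFB KO against 319 ± 184 in WT (SD, n = 3 each). Ifng signal averaged 60.9 ± 20.5 in the libraries labelled IFNko TGFB1 KO, above the 5.36 ± 3.72 in IFNko TGFB+ (SD, n = 3 each), and since the disrupted part of the gene is not known here, the Ifng probe set does not test these labels.

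**Figure D1:**
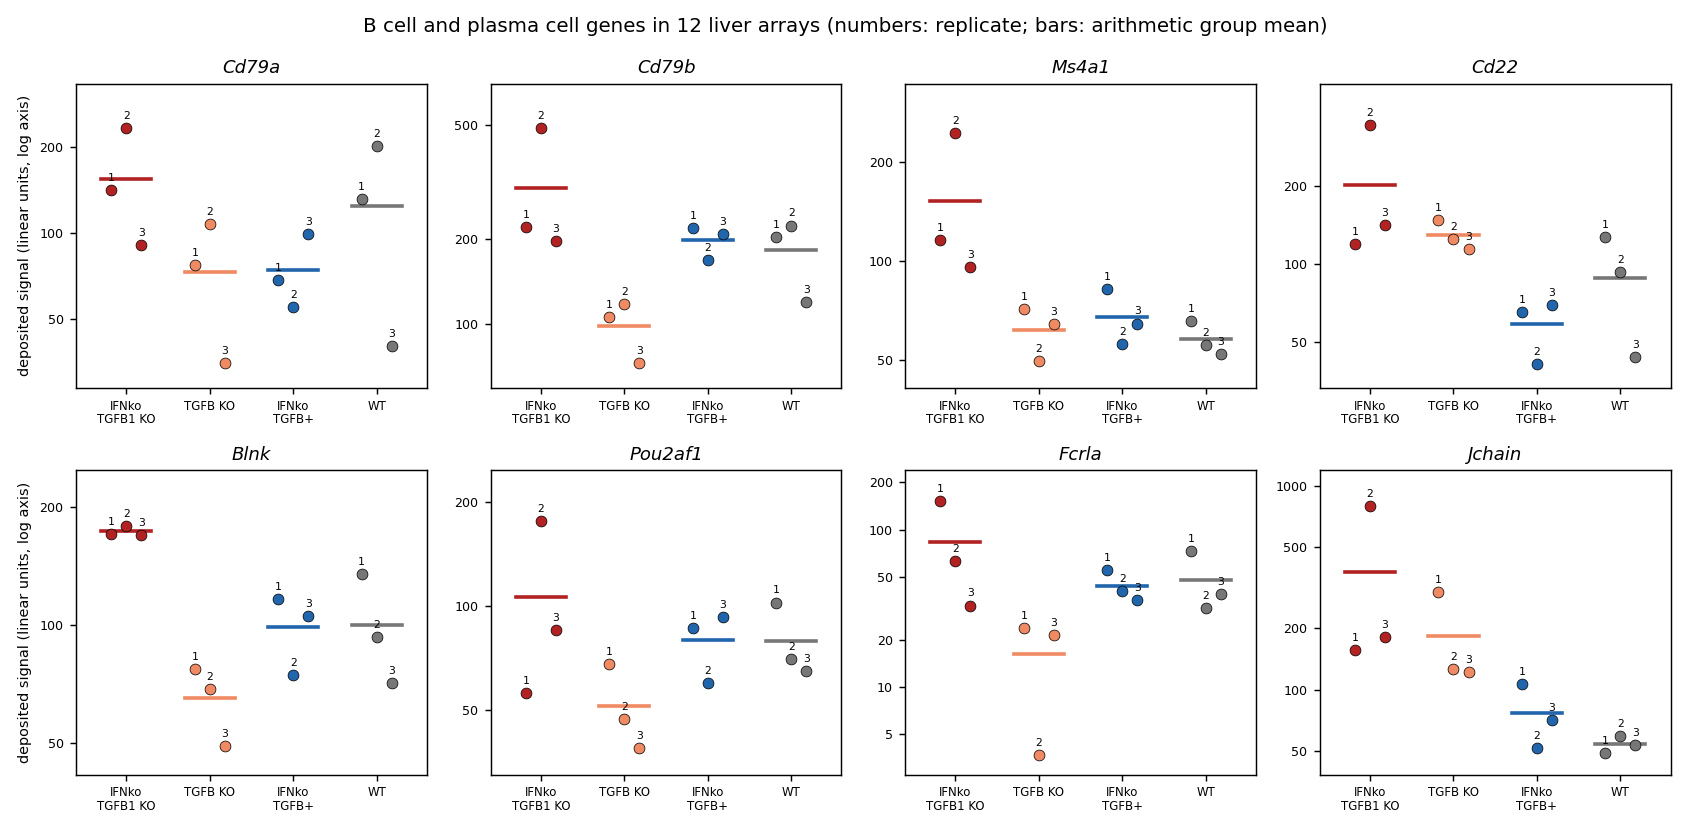
Deposited signal (linear units, log axis) of the 8 genes in each of the 12 arrays, with 1 point per mouse, numbered by replicate, and a bar at the arithmetic mean of each group of 3. IFNko TGFB1 KO 2 has the highest point for Jchain, at 794.6, and for Cd79b, at 490.1.

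Among mice without Ifng, Cd22 and Jchain were called higher where Tgfb1 was lost as well. Among mice with Ifng none of the 8 genes passed the test. The difference between these 2 effects of Tgfb1 loss was called for neither gene. It was 0.73 ± 0.56 for Cd22 and 0.26 ± 0.77 for Jchain (limma, adjusted p = 0.667 and 0.931). In IFNko TGFB1 KO against IFNko TGFB+, the 2 genes rose 2.32-fold and 3.06-fold. That is 2 of 8 genes higher and none lower, beside 25.8% of all tested genes called, 12.7% higher and 13.1% lower. Counted in either direction, 2 of 8 is close to the share of all genes. Each of these calls was lost in 9 of the 12 fits that left out 1 array, and without IFNko TGFB1 KO 2 the values were 0.75 and 0.86 on the log2 scale. In TGFB KO against WT, 0 of 8 passed the test in limma (Benjamini-Hochberg adjusted), beside 24.1% of all genes (12.2% higher and 11.9% lower). Before adjustment 4 of 8 had a p under 0.05, a threshold that all of those 24.1% also pass. The full share of all genes under it is not given here, so this count has no background beside it. The median log2 fold change of the 8 genes was 0.63 in IFNko TGFB1 KO against IFNko TGFB+, where all genes had a median of -0.01, and 0.40 without IFNko TGFB1 KO 2. It was -0.52 in TGFB KO against WT, where all genes had -0.06, and -0.30 without TGFB KO 3 or -0.34 without WT 2. All p-values rest on 1 estimate of the spread per gene, shared by the 12 arrays with 3 mice in each of the 4 groups. Leaving out an array outside a comparison can therefore change its p. A difference counts as called at an adjusted p under 0.05.

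Cd79a, the alpha chain of the receptor pair, had signals of 140.8, 232 and 91.1 in IFNko TGFB1 KO, 77.3, 107.2 and 35.2 in TGFB KO, 68.6, 55.2 and 99.0 in IFNko TGFB+, and 131.7, 200.1 and 40.5 in WT. The 4 groups overlapped, and the WT mice alone spread over most of the range. No comparison of Cd79a passed the test, with log2 fold changes of 0.67 ± 0.47 (SE) in IFNko TGFB1 KO against IFNko TGFB+ (limma, adjusted p = 0.334) and -0.56 ± 0.47 in TGFB KO against WT (adjusted p = 0.441).

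Cd79b, the beta chain, had signals of 219.4, 490.1 and 196.3 in IFNko TGFB1 KO, 106, 117.6 and 72.9 in TGFB KO, 218.5, 168.7 and 207.2 in IFNko TGFB+, and 202.3, 222.2 and 120 in WT. The 3 TGFB KO mice were lowest of all 12, whereas IFNko TGFB1 KO and IFNko TGFB+ overlapped. The log2 difference of TGFB KO from WT was -0.80 ± 0.32 (limma, adjusted p = 0.0919). Cd79b was higher in IFNko TGFB1 KO than in TGFB KO by 1.33 ± 0.32 on the log2 scale (adjusted p = 0.0351), a call that was lost without IFNko TGFB1 KO 2 (0.94, adjusted p = 0.0581) or without any of the 3 TGFB KO or 3 IFNko TGFB+ arrays (adjusted p of these 7 fits 0.0528 to 0.0995). Without IFNko TGFB1 KO 2, the TGFB KO difference from WT became a call (-0.80, adjusted p = 0.0237).

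Ms4a1 had signals of 116.1, 246.4 and 96.4 in IFNko TGFB1 KO, 71.5, 49.6 and 64.5 in TGFB KO, 82.5, 56.0 and 64.7 in IFNko TGFB+, and 66.0, 55.7 and 52.1 in WT. All 3 IFNko TGFB1 KO mice were above the other 9, which overlapped one another. The log2 difference was 0.70 ± 0.28 from IFNko TGFB+ (limma, adjusted p = 0.0903) and 0.83 ± 0.28 from TGFB KO (adjusted p = 0.12), and neither was called. Without IFNko TGFB1 KO 2 they were 0.31 and 0.44. A second Ms4a1 probe set read 133.8, 104 and 37.6 in IFNko TGFB1 KO and 44.6, 16.8 and 29.8 in IFNko TGFB+. After normalization these groups overlapped on it.

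Cd22, the inhibitory lectin, had signals of 119.4, 341.8 and 141.1 in IFNko TGFB1 KO, 147.5, 124 and 114.1 in TGFB KO, 65.0, 41.0 and 69.1 in IFNko TGFB+, and 126.6, 93.1 and 43.8 in WT. Both groups without Tgfb1 lay above IFNko TGFB+, and the WT mice overlapped TGFB KO. Cd22 rose by 1.21 ± 0.39 on the log2 scale in IFNko TGFB1 KO against IFNko TGFB+ (limma, adjusted p = 0.0415). The call was lost in 9 of the 12 fits that left out an array (adjusted p 0.0519 to 0.141), all except those without WT 1, WT 3 or IFNko TGFB1 KO 1, and without IFNko TGFB1 KO 2 the value was 0.75 (adjusted p = 0.14). In TGFB KO against WT it was 0.48 ± 0.39 (adjusted p = 0.427). A second Cd22 probe set, which lies under the filter on dim probe sets, read 41, 51.3 and 17.3 in IFNko TGFB1 KO against 10.1, 1.73 and 2.41 in IFNko TGFB+, and the groups did not overlap there.

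Blnk, the receptor adaptor whose promoter window holds the octamer, had signals of 170.8, 178.7 and 170 in IFNko TGFB1 KO, 77.0, 68.5 and 49.2 in TGFB KO, 116.4, 74.5 and 105.3 in IFNko TGFB+, and 135, 93.0 and 71 in WT. The 3 IFNko TGFB1 KO mice were close together and above all other mice. Blnk was higher in IFNko TGFB1 KO than in TGFB KO by 1.11 ± 0.22 (limma, adjusted p = 0.0148), and by 1.10 without IFNko TGFB1 KO 2 (adjusted p = 0.0336). The call was lost without TGFB KO 3 (0.96, adjusted p = 0.0516) and in none of the other 11 fits that left out an array. Against IFNko TGFB+ the difference was 0.58 ± 0.22 (adjusted p = 0.0746), and TGFB KO differed from WT by -0.52 ± 0.22 (adjusted p = 0.109, or -0.70 and 0.0485 without WT 3).

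Pou2af1, the octamer coactivator, had signals of 55.9, 176.3 and 85.3 in IFNko TGFB1 KO, 68.0, 47.1 and 38.9 in TGFB KO, 86.3, 59.7 and 93.1 in IFNko TGFB+, and 102.3, 70.1 and 64.9 in WT. After normalization the TGFB KO mice lay just below the WT mice, IFNko TGFB1 KO 1 was the lowest of all and IFNko TGFB1 KO 2 the highest. No comparison was called: the log2 difference was -0.51 ± 0.37 in TGFB KO against WT (limma, adjusted p = 0.357) and -0.04 ± 0.37 in IFNko TGFB1 KO against IFNko TGFB+ (adjusted p = 0.947).

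Fcrla had signals of 152.5, 63.8 and 33 in IFNko TGFB1 KO, 23.8, 3.71 and 21.4 in TGFB KO, 55.4, 41.1 and 35.9 in IFNko TGFB+, and 73.5, 31.7 and 39.0 in WT. The TGFB KO mice were lowest of all, with no overlap with any other group. The log2 difference from WT was -0.98 ± 0.39 (limma, adjusted p = 0.0953), which passed the test without IFNko TGFB1 KO 1 (-0.97, adjusted p = 0.043). IFNko TGFB1 KO exceeded TGFB KO by 1.38 ± 0.39 (adjusted p = 0.068). On the 2 dimmer Fcrla probe sets the TGFB KO differences from WT were -0.21 ± 0.36 and 0.07 ± 0.45, so the low TGFB KO values rest on the brightest probe set.

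Jchain, the plasma cell gene of the list, had signals of 156.1, 794.6 and 180.7 in IFNko TGFB1 KO, 301.7, 126.2 and 122.4 in TGFB KO, 107.4, 51.8 and 71.1 in IFNko TGFB+, and 49.2, 59.3 and 54.0 in WT. All 6 mice without Tgfb1 were above the 6 that keep it. Jchain rose by 1.61 ± 0.54 on the log2 scale in IFNko TGFB1 KO against IFNko TGFB+ (limma, adjusted p = 0.0479), and TGFB KO differed from WT by 1.36 ± 0.54 (adjusted p = 0.0925). The first call was lost without IFNko TGFB1 KO 2 (0.86, adjusted p = 0.124) and in 9 of the 12 fits that left out an array in all (adjusted p 0.0586 to 0.149), the others being those without TGFB KO 1, IFNko TGFB1 KO 1 or IFNko TGFB1 KO 3. Without IFNko TGFB1 KO 2, the difference of TGFB KO from WT was 1.35 and passed the test (adjusted p = 0.0104).

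**Figure D2:**
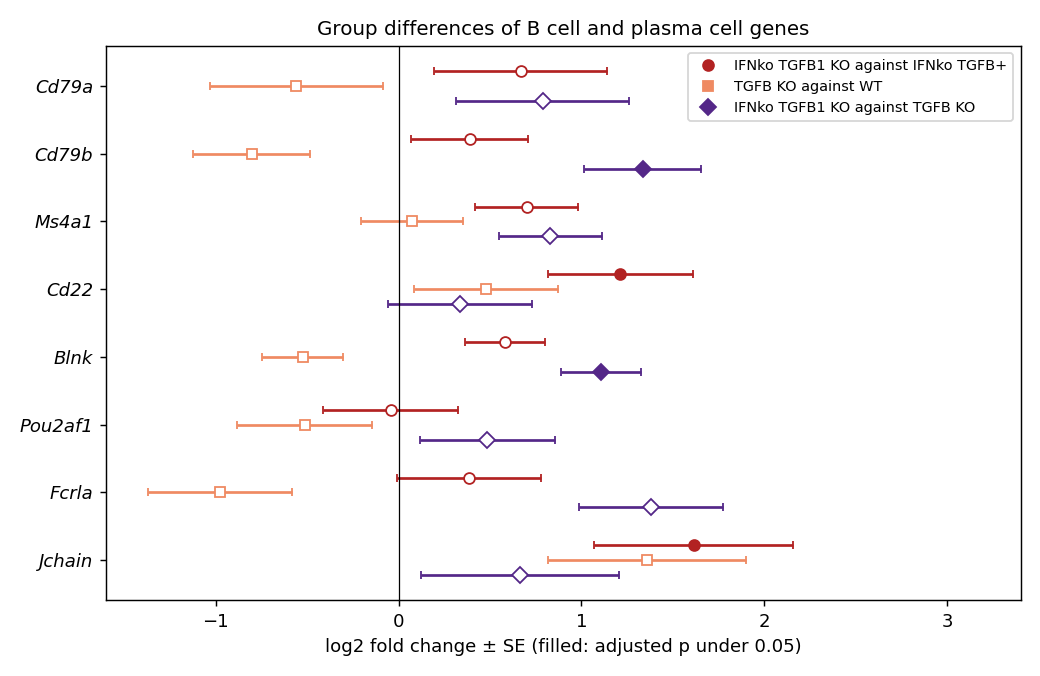
Log2 fold change with its standard error for the 8 genes in 3 comparisons of groups of 3 mice, filled where the adjusted p was under 0.05. Cd22 and Jchain are filled in IFNko TGFB1 KO against IFNko TGFB+, Cd79b and Blnk in IFNko TGFB1 KO against TGFB KO, and none in TGFB KO against WT.

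The signs of the 2 effects of Tgfb1 loss were opposite for Cd79a, Cd79b, Blnk and Fcrla, and the difference between the effects was not called for any of the 8 genes. In TGFB KO against WT, the arrays of 3 genes lay lower without overlap (Cd79b, Pou2af1 and Fcrla) and those of 1 gene higher (Jchain), beside 21.9% and 18.4% of all genes. In IFNko TGFB1 KO against IFNko TGFB+, the arrays of 4 genes lay higher without overlap (Ms4a1, Cd22, Blnk and Jchain), beside 22.2% of all genes, and of none lower, beside 23.3%. The difference between the 2 effects was positive for all 8 genes, from 0.26 ± 0.77 for Jchain to 1.36 ± 0.56 for Fcrla, with a median of 0.92 against 0.01 over all genes. The median was 0.54 without IFNko TGFB1 KO 2, and 7 of the 8 were positive. None was called in limma, beside 0.87% of all genes. Before adjustment 3 of 8 had a p under 0.05, and the share of all genes under that threshold is not given here. Blnk had the smallest p of the 8, with a difference of 1.11 ± 0.31 (adjusted p = 0.166). Without IFNko TGFB1 KO 2 the Jchain difference turned to -0.50.

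Between the 2 groups that lack Tgfb1, Cd79b and Blnk were higher in IFNko TGFB1 KO, which is 2 of 8 genes higher and none lower, beside 5.36% of all genes called, 2.54% higher and 2.82% lower. The arrays of 4 genes did not overlap, all higher in IFNko TGFB1 KO (Cd79b, Ms4a1, Blnk and Fcrla), beside 13.2% of all genes higher and 9.92% lower without overlap. This comparison shares its arrays with the other ones that use these groups. The values for Cd22 and Jchain were 0.33 ± 0.39 and 0.67 ± 0.54, and both turned negative without IFNko TGFB1 KO 2 (-0.12 and -0.09). In IFNko TGFB+ against WT, none of the 8 genes passed the test, nor did any of the 12760 (0%). Before adjustment 0 of 8 had a p under 0.05, and the share of all genes under that threshold is not given here. The log2 differences ran from -0.44 for Cd79a (95% interval -1.47 to 0.59) to 0.41 for Jchain (-0.78 to 1.60), and the arrays of all 8 genes overlapped, beside 6.47% of all genes higher and 6.67% lower without overlap.

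**Figure D3:**
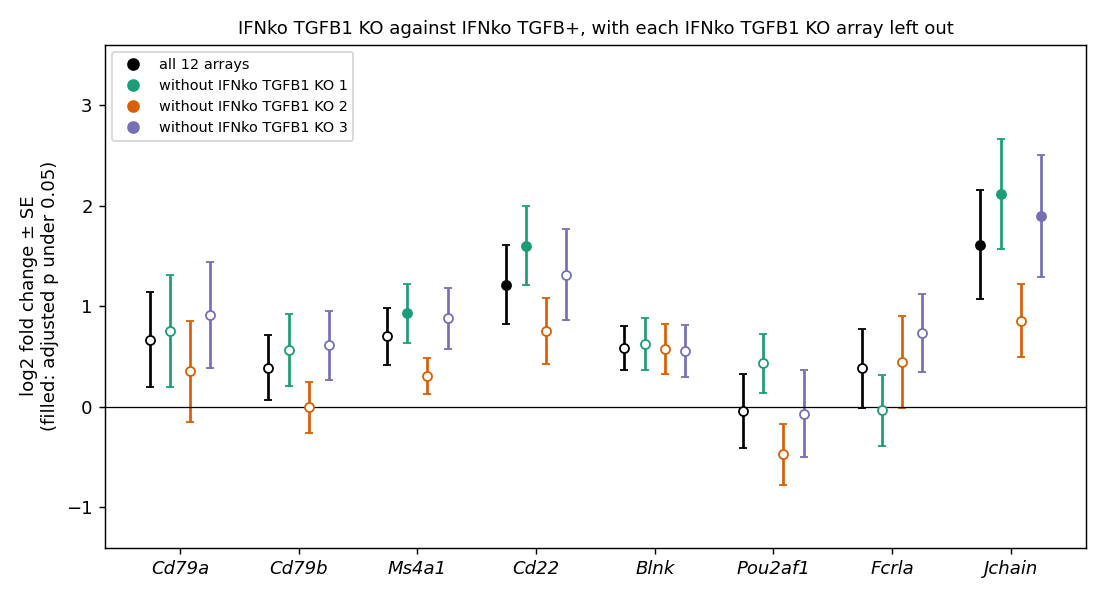
Log2 fold change (vertical axis) of the 8 genes from all 12 arrays and with each IFNko TGFB1 KO array left out in turn, in IFNko TGFB1 KO against IFNko TGFB+, with bars for the standard error and filled points where the adjusted p was under 0.05. Without IFNko TGFB1 KO 2, Cd22 moves to 0.75 and Jchain to 0.86, while Blnk is 0.58 with and without it.

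The array IFNko TGFB1 KO 2 also held the highest immunoglobulin signal. Of 56 probe sets for immunoglobulin chains, 43 carry a single symbol and 13 several, 20 of the 56 passed the filter, and IFNko TGFB1 KO 2 was highest in 15 of these 20. Their summed signal was 5027, 30910 and 6263 in IFNko TGFB1 KO, 11130, 5071 and 4548 in TGFB KO, 3547, 2835 and 2964 in IFNko TGFB+, and 3451, 3294 and 3267 in WT. Every mouse without Tgfb1 exceeded every mouse that keeps it, and IFNko TGFB1 KO 2 and TGFB KO 1 had the highest sums of their groups. Immunoglobulin segments share sequence, so these probe sets are not separate measurements. One Ighm probe set, for the constant chain of immunoglobulin M, read 86.0, 3121 and 227.3 in IFNko TGFB1 KO, 268.9, 39.8 and 42.9 in TGFB KO, 45.9, 61.2 and 33.7 in IFNko TGFB+, and 26.7, 31.6 and 40.5 in WT. The kappa variable segment Igkv8-30 read 420.1, 2755 and 363.9 in IFNko TGFB1 KO, 732.9, 388 and 436.6 in TGFB KO, 240.9, 188 and 206.4 in IFNko TGFB+, and 288.7, 205.7 and 176.5 in WT. For Igkv8-30 too the 6 mice without Tgfb1 were all above the others. The brightest Ighm probe set was highest in TGFB KO 1 instead. It read 795.6, 1950 and 1051 in IFNko TGFB1 KO and 2702, 1137 and 1039 in TGFB KO. In IFNko TGFB+ it read 746.3, 480.2 and 620.2, and in WT 734.1, 696.9 and 830.7. On it Ighm differed by 1.06 ± 0.39 in IFNko TGFB1 KO against IFNko TGFB+ (limma, adjusted p = 0.064) and by 0.97 ± 0.39 in TGFB KO against WT (adjusted p = 0.0899), neither called. The 11 Ighm probe sets disagreed in size, from -0.24 to 4.24 in the first of these comparisons. In a fit over all 45037 probe sets, 2 of the 20 immunoglobulin probe sets were called there, and 0 of 20 in TGFB KO against WT. The share of all probe sets called in that fit is not given here. Of the 12760 genes tested, 25.8% and 24.1% were called in these comparisons. Both called probe sets were for Ighm and higher, by 4.24 ± 1.00 and 3.20 ± 0.78 (limma, adjusted p = 0.0208 and 0.0247). These values were 2.79 and 2.08 without IFNko TGFB1 KO 2 (adjusted p = 0.0399 and 0.0474). The first call was lost without IFNko TGFB+ 1 or 2, and the second without any 1 of the 3 IFNko TGFB+ arrays (adjusted p up to 0.0871). In the same fit over all probe sets, the calls of Cd22, Jchain, Cd79b and Blnk were lost. Adjusted p (limma) was 0.0898 for Cd22 and 0.0947 for Jchain in IFNko TGFB1 KO against IFNko TGFB+. It was 0.0928 for Cd79b and 0.0547 for Blnk in IFNko TGFB1 KO against TGFB KO.

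**Figure D4:**
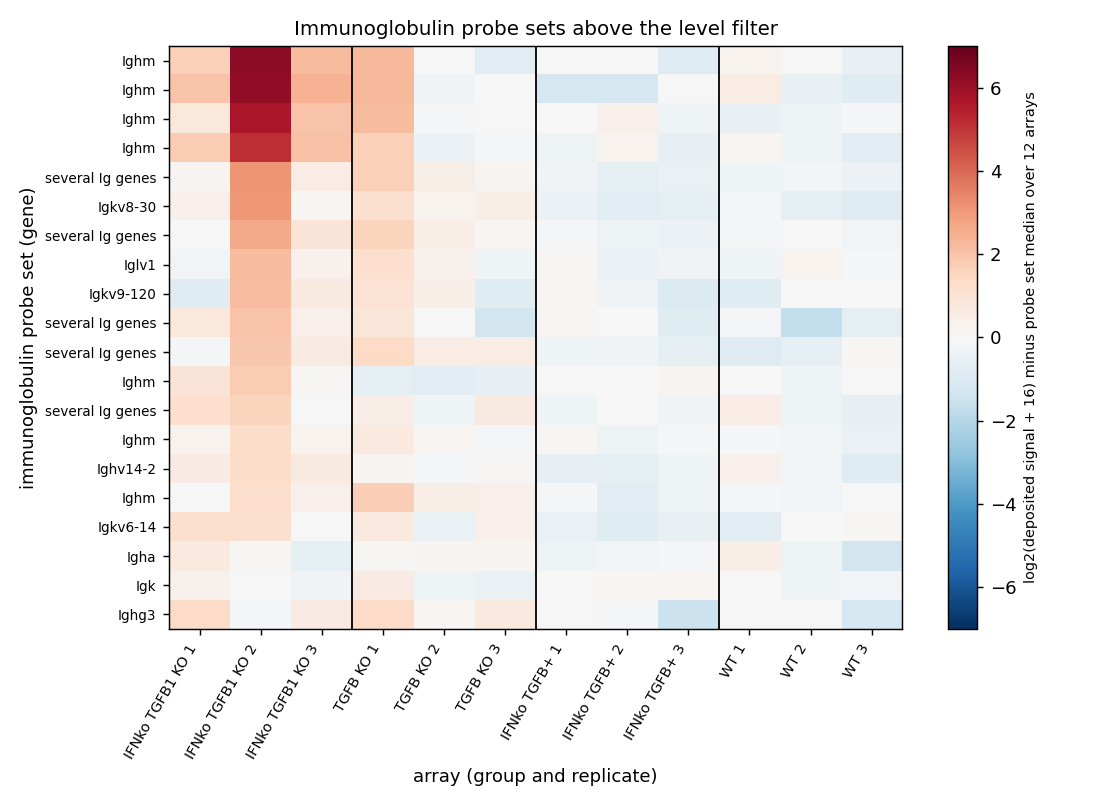
Log2 of the deposited signal plus 16 for the 20 immunoglobulin probe sets above the filter (rows, named by gene), minus the median of the probe set over the 12 arrays (columns), on a colour scale from blue (below the median) to red (above it). IFNko TGFB1 KO 2 holds the highest level in 15 of the 20.

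Of 18 tested genes of receptor signalling, 8 were higher, none lower and 10 not called in IFNko TGFB1 KO against IFNko TGFB+, beside 12.7% of all genes higher and 13.1% lower. In TGFB KO against WT, 8 were higher, 1 lower and 9 not called, beside 12.2% and 11.9%. The lower one was Cd81, a tetraspanin of the B cell coreceptor that many other cells express, with -0.51 ± 0.14 (limma, adjusted p = 0.0203), a call lost with median centring and in 4 of the 12 fits that left out an array, those without WT 1, WT 2, TGFB KO 1 or TGFB KO 3. Among the higher genes were the phosphatase Ptprc (CD45) with 3.11 ± 0.25 in IFNko TGFB1 KO against IFNko TGFB+ and 2.69 ± 0.25 in TGFB KO against WT, the adaptor Pik3ap1 with 1.37 ± 0.16 and 1.59 ± 0.16, and the kinase Syk with 1.76 ± 0.28 and 1.57 ± 0.28 (limma, adjusted p at most 0.0022). These 3 are also expressed by other leukocytes. Of 17 transcription factors of the B lineage, 6 were higher, 1 lower and 10 not called in each of these comparisons, beside the same shares of all genes. Prdm1, the repressor that drives plasma cell differentiation, was higher in both, by 1.71 ± 0.28 in IFNko TGFB1 KO against IFNko TGFB+ and 2.09 ± 0.28 in TGFB KO against WT, and Bach2, which opposes it, was lower in both, by -1.05 ± 0.23 and -1.42 ± 0.23 (limma, adjusted p at most 0.00668). Prdm1 signals were 132.7, 121.4 and 91.0 in IFNko TGFB1 KO, 238.5, 97.6 and 177 in TGFB KO, 12.99, 12.4 and 31.8 in IFNko TGFB+, and 27.4, 25.3 and 27.6 in WT. The mice without Tgfb1 were all above the others for Prdm1. T cells also express Prdm1 and Bach2. Spi1 had the lowest p of this list in both, with 2.43 ± 0.26 and 2.68 ± 0.26 (limma, adjusted p = 0.000105 and 2.95e-05). All 10 Kupffer cell and macrophage markers described below rose in the same comparisons, and which cells the Spi1 signal comes from was not tested. Xbp1 (0.141 ± 0.141 and 0.248 ± 0.141) and Irf4 (0.155 ± 0.405 and -0.158 ± 0.405) of the B lineage list were called in neither comparison. Xbp1 read 2218 to 2631 in the mice that keep Tgfb1, and which liver cells its signal comes from was not tested. Pax5, the factor that holds B cell identity, differed by -0.69 ± 0.40 and -1.20 ± 0.40 in IFNko TGFB1 KO against IFNko TGFB+ and in TGFB KO against WT (adjusted p = 0.241 and 0.0507), neither called.

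Of 15 tested genes of plasma cells and secretion, 4 were higher and none lower in IFNko TGFB1 KO against IFNko TGFB+, and 2 were higher and 2 lower in TGFB KO against WT. Both come to 26.7% called, close to the 25.8% and 24.1% of all genes. With the deposited scaling or median centring, 2 of them were lower in the first comparison, where 2 were higher without IFNko TGFB+ 2. In the second, 1 was higher without TGFB KO 1. Tnfrsf13b (TACI), a receptor for B cell survival factors, rose by 1.46 ± 0.31 in IFNko TGFB1 KO against IFNko TGFB+ (limma, adjusted p = 0.00513) and was 0.32 ± 0.31 in TGFB KO against WT. Its signals were 152.5, 356 and 145.9 in IFNko TGFB1 KO, 106.9, 67.4 and 60.5 in TGFB KO, 55.9, 50.9 and 55.6 in IFNko TGFB+, and 74.9, 45.7 and 54.9 in WT. All 3 IFNko TGFB1 KO mice were above the rest. Slamf7, a surface receptor of plasma cells and other lymphocytes, rose by 1.60 ± 0.37 and 1.59 ± 0.37 in IFNko TGFB1 KO against IFNko TGFB+ and TGFB KO against WT (adjusted p = 0.00798 and 0.00873). The 2 lower genes in TGFB KO against WT were Txndc5, a thiol oxidoreductase of the endoplasmic reticulum, with -0.75 ± 0.18 (limma, adjusted p = 0.00921), and Derl3, a part of the pathway that removes misfolded proteins from it, with -1.55 ± 0.48 (adjusted p = 0.0368). The Derl3 call was lost without WT 1, WT 2, TGFB KO 1 or TGFB KO 3 (adjusted p 0.0932 to 0.127). Derl3 signals were 14.05, 63.35 and 9.41 in IFNko TGFB1 KO, 13.9, 27.6 and 4.585 in TGFB KO, 8.08, 33.4 and 7.65 in IFNko TGFB+, and 100.2, 76.8 and 43.1 in WT. IFNko TGFB+, which keeps Tgfb1, thus overlapped TGFB KO. Mzb1 and Sdc1 of the same list were called in neither comparison. In IFNko TGFB1 KO against IFNko TGFB+ they were 0.007 ± 0.519 and -0.789 ± 0.324, and the Sdc1 arrays lay lower without overlap, beside 23.3% of all genes. In TGFB KO against WT they were -0.339 ± 0.519 and -0.290 ± 0.324. In the mice that keep Tgfb1, Sdc1 read 2958 to 5351 and Txndc5 2181 to 2960, where Jchain read 49.2 to 107.4. Which liver cells these Sdc1 and Txndc5 signals come from was not tested. Of 9 tested genes of early B cell precursors, 3 were higher and 1 lower in TGFB KO against WT, and none was called in IFNko TGFB1 KO against IFNko TGFB+, beside 24.1% and 25.8% of all genes called. Cd93, a receptor of immature B cells and of endothelium, was higher by 0.97 ± 0.18 in TGFB KO against WT (limma, adjusted p = 0.0025) and was called in all 12 fits that left out an array. The others were near the threshold: the receptor tyrosine kinase Kit with 1.62 ± 0.48 (adjusted p = 0.0307), the interleukin 7 receptor chain Il7r with 0.99 ± 0.32 (adjusted p = 0.0459) and Dntt, the polymerase that adds bases at immunoglobulin gene joints, with -0.99 ± 0.32 (adjusted p = 0.0451). Of the 12 fits that left out an array, 5 lost the call of Kit, 8 that of Il7r and 7 that of Dntt, so the counts ran from 1 to 4 higher and from 0 to 1 lower. With median centring 3 were higher and none lower.

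Of 12 tested genes for B cell survival and homing, 6 were higher and none lower in IFNko TGFB1 KO against IFNko TGFB+, and 3 were higher and 2 lower in TGFB KO against WT, beside 25.8% and 24.1% of all genes called. In the first comparison 1 was lower with the deposited scaling and 2 with median centring, and 3 were higher without IFNko TGFB1 KO 1, IFNko TGFB1 KO 2 or IFNko TGFB+ 2. Cxcl13, the chemokine that draws B cells into follicles, had signals of 163.5, 301.3 and 200.7 in IFNko TGFB1 KO, 124.5, 95.6 and 39.6 in TGFB KO, 55.9, 4.42 and 1.22 in IFNko TGFB+, and 40.4, 55.0 and 24.0 in WT. The IFNko TGFB1 KO mice were above all others, and TGFB KO overlapped WT. Cxcl13 rose by 2.84 ± 0.51 in IFNko TGFB1 KO against IFNko TGFB+ (limma, adjusted p = 0.00221), was 0.84 ± 0.51 in TGFB KO against WT (adjusted p = 0.271), and the difference of the 2 effects was 2.01 ± 0.72 (adjusted p = 0.293). Ltb, a lymphotoxin chain needed for lymphoid tissue, read 682.2, 1105 and 703.3 in IFNko TGFB1 KO, 348.8, 311 and 419.6 in TGFB KO, 108.2, 62.8 and 113.2 in IFNko TGFB+, and 69.5, 104.3 and 89.3 in WT. The mice without Tgfb1 were all above the others for Ltb. It rose in both comparisons, by 2.95 ± 0.26 and 1.78 ± 0.26 (adjusted p = 2.98e-05 and 0.000539). Cd40, the receptor through which T cells help B cells, rose by 1.07 ± 0.34 in IFNko TGFB1 KO against IFNko TGFB+ and by 1.73 ± 0.34 in TGFB KO against WT (adjusted p = 0.0379 and 0.00348). The first of these calls was lost in 6 of the 12 fits that left out an array, those without TGFB KO 1, IFNko TGFB1 KO 1 or 2, or any 1 of the 3 IFNko TGFB+ arrays (adjusted p 0.0504 to 0.134), and the second in none. Cxcl12 and Il7, factors that support B cell precursors, were lower in TGFB KO against WT, by -1.86 ± 0.26 and -1.34 ± 0.29 (adjusted p = 0.000436 and 0.00597).

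Pigr, the receptor that carries Jchain-containing immunoglobulin across epithelium, rose in TGFB KO, and its effect of Tgfb1 loss differed between the backgrounds. Its signals were 182.4, 102 and 126.7 in IFNko TGFB1 KO, 2245, 2304 and 1558 in TGFB KO, 87.5, 155.4 and 105.8 in IFNko TGFB+, and 200.8, 107.1 and 142 in WT. The 3 TGFB KO mice were far above the other 9, which overlapped. It rose by 3.59 ± 0.28 in TGFB KO against WT (limma, adjusted p = 7.89e-06) and was 0.07 ± 0.28 in IFNko TGFB1 KO against IFNko TGFB+ (adjusted p = 0.887). The difference of these effects was -3.52 ± 0.40 (adjusted p = 0.00204). For Jchain the difference of effects was 0.26 ± 0.77 (adjusted p = 0.931).

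**Figure D5:**
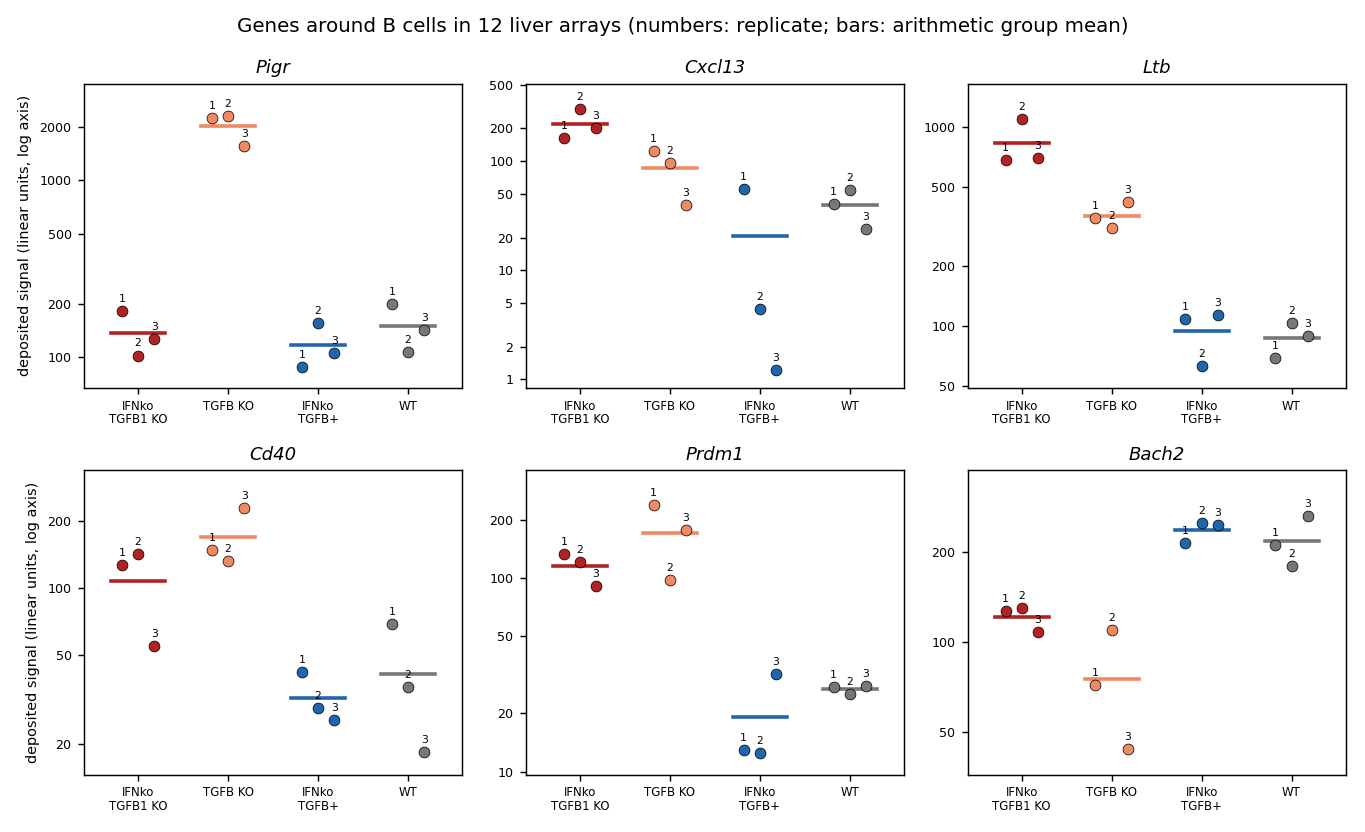
Deposited signal (linear units, log axis) of 6 genes around B cells in each of the 12 arrays, with 1 point per mouse, numbered by replicate, and a bar at the arithmetic mean of each group of 3. Pigr lies between 1558 and 2304 in TGFB KO and between 87.5 and 200.8 in the other 9 mice.

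Markers of T cells and of Kupffer cells and macrophages moved with the same groups, beside 12.7% of all genes higher in IFNko TGFB1 KO against IFNko TGFB+ and 12.2% in TGFB KO against WT. All 9 tested T cell markers were higher in both comparisons of Tgfb1 loss, and their summed signal was 2200 to 3512 in IFNko TGFB1 KO, 847.7 to 984.8 in TGFB KO, 128.3 to 217.9 in IFNko TGFB+ and 153 to 176.5 in WT. All 10 Kupffer cell and macrophage markers were also higher in both (9 of 10 in IFNko TGFB1 KO against IFNko TGFB+ with median centring), with sums of 31980 to 44510 in IFNko TGFB1 KO, 45780 to 50020 in TGFB KO, 7261 to 7332 in IFNko TGFB+ and 7268 to 9254 in WT. Of the 5 tested plasmacytoid dendritic cell markers, which share some B lineage genes, 2 were higher in IFNko TGFB1 KO against IFNko TGFB+ (1 in 8 of the 12 fits that left out an array) and 3 in TGFB KO against WT. These were Lair1 and Tcf4 in both, and Bst2 in TGFB KO against WT. Of the 12 fits that left out an array, 9 lost the first of these Tcf4 calls and 7 the second. Siglech and Ccr9 were too dim to be tested. In TGFB KO, Siglech read 3.43, 3.96 and 16.3, against 30.7, 40.4 and 38.4 in WT. Ccr9 went the other way, with 21.2, 22.1 and 26.4 against 3.16, 13.4 and 14.9. In IFNko TGFB+, which keeps Tgfb1, Siglech read 5.6, 17.1 and 16.4 and Ccr9 15.8, 10.4 and 6.97. In IFNko TGFB1 KO they read 27.7, 30.5 and 5.7, and 60.9, 20.8 and 24.35. Of 6 tested erythroid markers, none was called in IFNko TGFB1 KO against IFNko TGFB+ and 1 was higher in TGFB KO against WT. Of 7 hepatocyte markers, 1 was lower in the first comparison (3 with median centring) and none was called in the second. Within its group, IFNko TGFB1 KO 2 had the highest T cell sum (3512), the highest sum of erythroid markers (2941, against 1185 and 1749) and the lowest sum of hepatocyte markers (86360, against 121300 and 139300). The part of these cells and of that array's makeup in the values of the 8 genes was not tested.

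Over 28 pairs and 12 arrays the median Pearson correlation of log2 levels was 0.50, and it was 0.25 without IFNko TGFB1 KO 2. There were 14 pairs that exceeded 0.5 with that array and 10 without it. The highest value was 0.84, between Ms4a1 and Jchain. The genes whose levels were most like Cd79a over the 12 arrays were Rnf20 (r = 0.92), Dnmt1 (0.90), Snx30 (0.88), Rps18 (0.88) and Qrich1 (0.87). Those most like Jchain were Ms4a3 (0.96), Cd24a (0.95), Plxnd1 (0.95), Add1 (0.94) and Igkv8-30 (0.94), and over 11 arrays without IFNko TGFB1 KO 2 these 5 had 0.86 to 0.92. The 12 points share 4 groups and, in Jchain's case, 1 array at the top, and no p is given.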

How the data were processed

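Liver RNA of 12 mice was extracted with Trizol and labelled by an Affymetrix one-cycle protocol, per the labels' protocols. The deposited values are signal intensity per probe set on a linear scale. The values show a trimmed mean of 150 on all arrays (leaving out the lowest and highest 2 percent), which is a scaling made before deposit. The signal algorithm is not given in the sources used here. The precision is limited by 3 mice per group. Groups follow the labels.

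A pseudocount of 16 was added, log2 taken and the 12 arrays quantile normalized. Of 45101 probe sets, 34958 carry a single symbol, updated by gene identifier from RefSeq (GRCm38.p6), and 932 carry several. The brightest probe set stood for each gene, and genes under the 40th percentile of mean level (5.25 on the log2 scale) were left out, as were 64 control probe sets. The pseudocount makes fold changes of dim genes too small. limma 3.58.1 in R 4.3.3 (lmFit with a mean per group, eBayes) tested 5 contrasts, two-sided, with Benjamini-Hochberg adjustment over 12760 genes. Values after ± are SE unless given as SD. The procedure was tested on simulated data. Genes and lists were chosen with earlier results of these data known. The rule for naming genes outside the 8 allowed Tgfb1 and Ifng, for each list and contrast the 4 or fewer called genes of lowest p, and the 5 most correlated with Cd79a and with Jchain. Not all genes it allowed are named, and those named among them were chosen after their values were seen. So were Pax5, Xbp1, Irf4, Mzb1, Sdc1, Cd81, Ighm, the signals of Siglech and Ccr9, and single immunoglobulin probe sets. The second comparison of Syk and Cd40 was also chosen in this way. Alternatives were no quantile step (the deposited scaling), centring on the median, a pseudocount of 1 or 64, the 60th percentile or no filter, probe sets of a gene averaged, array weights, the replicate number as a block, and each array left out.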

Additional observations from a re-analysis of the deposited data

Results flagged for a closer look

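Among the 8 genes and the genes of the lists, 3 list genes had an effect of Tgfb1 loss that differed between the backgrounds without and with Ifng by the test of the difference itself (limma), beside 111 of all 12760 genes (0.87%). Pigr had a difference of -3.52 ± 0.40 (adjusted p = 0.00204). Bst2, an interferon-induced membrane protein used here as a marker of plasmacytoid dendritic cells, had a difference of -2.06 ± 0.25 (adjusted p = 0.00293), with mean signals of 461 (IFNko TGFB1 KO), 1810 (TGFB KO), 572 (IFNko TGFB+) and 527 (WT). Cd3g, a chain of the T cell receptor complex, had a difference of 2.01 ± 0.40 (adjusted p = 0.0416), with mean signals of 643 (IFNko TGFB1 KO), 218 (TGFB KO), 22.2 (IFNko TGFB+) and 38.2 (WT). The Cd3g call was lost in 9 of the 12 fits that left out an array (adjusted p 0.0695 to 0.135), all except those without WT 2, IFNko TGFB+ 1 or IFNko TGFB1 KO 3, and the other 2 calls were kept in all 12.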

How the results depend on the processing

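Of 355 values of the 8 genes under other settings, 333 kept their direction and their side of the threshold, as did 427 of 480 with an array left out. Median centring moved the median of all genes in IFNko TGFB1 KO against IFNko TGFB+ to -0.154, from -0.01. The number of the 8 genes called in IFNko TGFB1 KO against IFNko TGFB+ (2) was 4 with the deposited scaling, 1 with median centring or array weights, and 0 with a pseudocount of 1, no filter or the replicate block. In IFNko TGFB1 KO against TGFB KO (2) it was 1 with median centring, no filter or array weights. In TGFB KO against WT (0) it was 1 with array weights or the replicate block. Leaving out each array gave 0 to 2 for TGFB KO against WT, 0 to 3 for each of IFNko TGFB1 KO against IFNko TGFB+ and against TGFB KO, and 0 to 0 for the other contrasts. The difference of the effects was called for 111 genes in all, and for 57 with a pseudocount of 1, 212 with 64, and 46 to 164 with an array left out. All genes called ranged from 2182 to 3464 for TGFB KO against WT, 2266 to 3517 for IFNko TGFB1 KO against IFNko TGFB+, 320 to 728 against TGFB KO, and 0 to 2 for IFNko TGFB+ against WT. Median centring changed the split of calls to 1448 higher and 893 lower in TGFB KO against WT (1553 and 1524), 988 and 1864 in IFNko TGFB1 KO against IFNko TGFB+ (1618 and 1673), 100 and 387 against TGFB KO (324 and 360), and 9 and 101 for the difference (31 and 80). Signs turned for Pou2af1 in IFNko TGFB1 KO against IFNko TGFB+ with the deposited scaling (0.24) and a pseudocount of 64 (0.009), and in IFNko TGFB+ against WT for Fcrla with the deposited scaling (-0.05) and for Blnk with a pseudocount of 64 (-0.002) and array weights (-0.015). With arrays left out, signs turned within -0.002 to 0.18 for Ms4a1 in TGFB KO against WT. In IFNko TGFB1 KO against IFNko TGFB+ the ranges were -0.003 to 0.61 for Cd79b, -0.47 to 0.43 for Pou2af1 and -0.034 to 0.74 for Fcrla. Against TGFB KO they were -0.12 to 0.70 for Cd22 and -0.089 to 1.15 for Jchain, whose difference of effects ran from -0.50 to 0.73. In IFNko TGFB+ against WT they were -0.092 to 0.29 for Cd79b, -0.18 to 0.19 for Blnk, -0.09 to 0.17 for Pou2af1 and -0.18 to 0.28 for Fcrla. The cause was not tested. The same-numbered arrays shared only a number: their deviations correlated between -0.077 and 0.343, and the number of 1 IFNko TGFB+ array is not in its label. Under the replicate block Cd22 and Jchain lost their calls (adjusted p = 0.0557 and 0.0672), and Fcrla was called in TGFB KO against WT (-0.98, adjusted p = 0.0393) and in IFNko TGFB1 KO against TGFB KO (1.38, adjusted p = 0.0317). Dim probe sets and 3 mice per group limit what could be called.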
